A study of Mus musculus with 15 samples.

Results

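The genes described here are the Wnt ligands, their receptors and the proteins that modulate the signal, measured by RNA sequencing in the mouse optic nerve. They were chosen by symbol, with earlier results of these data known. The rule takes Wnt, Fzd, Sfrp, Dkk and Axin family names plus a short list of co-receptors, antagonists, nuclear factors and feedback genes. The deposited table lists 14237 genes, of which 45 are members by this rule, and all 45 were among the 14194 genes tested. Each gene in the table reaches an FPKM of 1, a level per length and depth, in 4 or more libraries of a group. The members are therefore the Wnt genes that reached this level in the nerve, and the rest of the families was not analysed here. By that level rule, 38 members were admitted through all 3 groups, 5 through 2 groups (Wnt11, Wnt16, Ror1, Dkk2 and Frzb) and 2 through 1 group. The last are Wnt10b, admitted through crush with AAV-null, and Sfrp5, admitted through crush with AAV-CNTF. For every gene not admitted through all 3 groups, some difference between groups was thus built into the listing.

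Optic nerves came from adult C57BL/6J mice, 5 biological replicates in each of 3 groups, numbered 2 to 6. Sham AAV-null nerves were exposed but not crushed, in animals whose eye had received AAV-null, the control vector, an adeno-associated virus. Crush AAV-null nerves were crushed 2 weeks after the same vector and collected 7 days after the crush. Crush AAV-CNTF nerves were treated in the same way, but the eye received AAV serotype 2 carrying a secreted form of ciliary neurotrophic factor (CNTF), a cytokine. All 3 groups thus carried an injected vector, the sources used here do not give the promoter of the vector, and the labels give no times for the sham animals. RNA was taken from whole nerve, so fewer cells of a type and less RNA per cell cannot be told apart in any value below.

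Wnt ligands are secreted proteins that carry a lipid added by the acyltransferase Porcn. At the receiving cell they bind Frizzled receptors, together with Lrp5 or Lrp6, and then stop a complex built on Axin and Apc from marking beta-catenin (Ctnnb1) for destruction. Stabilised beta-catenin enters the nucleus and acts with TCF/LEF factors, and several of its target genes, such as Axin2, Nkd1, Rnf43, Znrf3 and Apcdd1, dampen the pathway in turn. Ligands can also act through Ror receptors and the planar polarity branch without beta-catenin. In white matter the pathway is known for holding back the maturation of oligodendrocyte precursors, and in vessels of the central nervous system for maintaining the blood-brain barrier.

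TCF/LEF factors bind short sequences with the core CTTTG followed by A or T, and members with such letters before a start site could in principle be read by their own pathway. The search was for CTTTGAA or CTTTGAT, and likewise for the letters CTTTGTA or CTTTGTT, on both strands of the 250 bases before each start site of RefSeq (GRCm38.p6), where 29 of the 45 members have an entry, with 39 start sites. A match was present before 5 of these 39 start sites (12.8%), against 10.3% of 13266 start sites of listed genes and 14.8% of 32851 start sites in all. The share among the members is thus near that of other genes, and a match describes letters, not a used site. The 5 windows are shown because they are the members' own matches, each as 80 bases in the direction of transcription with the match in capitals, and none overlaps an exon of GENCODE M21. They belong to the receptor Fzd7 (chr1:59481980-59482059, plus strand), the factor Lef1 at a downstream start (chr3:131156110-131156189, plus strand), the factor Tcf7l2 at a downstream start (chr19:55895241-55895320, plus strand), and the ligands Wnt11 (chr7:98835024-98835103, plus strand) and Wnt5b at a downstream start (chr6:119449415-119449494, minus strand). The first bases after these starts of Fzd7, Lef1 and Tcf7l2 were not found in a GENCODE M21 transcript of the gene.
Fzd7: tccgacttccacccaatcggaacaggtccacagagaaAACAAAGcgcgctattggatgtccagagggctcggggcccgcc
Lef1: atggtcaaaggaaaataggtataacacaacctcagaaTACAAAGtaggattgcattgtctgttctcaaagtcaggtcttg
Tcf7l2: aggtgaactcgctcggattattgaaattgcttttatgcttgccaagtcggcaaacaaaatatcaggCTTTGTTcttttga
Wnt11: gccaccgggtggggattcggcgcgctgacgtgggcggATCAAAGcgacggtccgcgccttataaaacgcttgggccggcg
Wnt5b: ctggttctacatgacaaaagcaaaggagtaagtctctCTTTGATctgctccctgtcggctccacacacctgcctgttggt
Of these genes Tcf7l2 rose after crush and the others did not pass the test there, as given below. The palindrome bound by STAT factors, TTCNNNGAA, which can share bases with the TCF/LEF letters, was searched in the same windows because CNTF signals through STAT3. It was present before 2 of the 39 start sites (5.13%), those of Frzb and Wnt5b, against 5.76% of the start sites of listed genes and 7.02% in all.

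Totals per library ran from 19856705 to 29558299 counts over the listed genes, so that 1 CPM (a count scaled to a common library size) rests on many reads. In a principal component analysis of all genes, component 1 (33.5% of the variance) separated sham from crushed nerves. Component 2 (8.93%) set apart crush AAV-null replicate 6, which had 3.18% of genes at 0. Markers of the labelled tissue were abundant: 12 oligodendrocyte genes summed to 51644 to 65621 CPM in sham. Pou4f1, a nuclear marker of retinal ganglion cells, was among the markers that are not in the table. The other 10 markers on its list of axons and neurons, Rbpms, Sncg and Thy1 among them, are in the table.

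In the sham nerve, the members spanned a wide range of levels per length. Ctnnb1, which encodes beta-catenin, and Apc, a scaffold of its destruction complex, were high at 93.1 ± 12.1 and 81.6 ± 13.2 FPKM (SD, n = 5 each), with overlapping ranges. Dkk3, a secreted Dickkopf relative whose role in Wnt signalling is unsettled, had 57.7 ± 8.86 FPKM, and its lowest library (46.6) lay far above the highest library of the next antagonist, Wif1 (6.63). Nkd1, a feedback inhibitor that binds Dishevelled, had 43.6 ± 8.26 FPKM, below every Apc value and above every Axin2 value.

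The receptor order in sham was led by Fzd10 (32.3 ± 4.95 FPKM), Fzd3 (28.1 ± 7.82), the co-receptor Lrp6 (22.4 ± 5.18) and Fzd1 (18.5 ± 4.01; SD, n = 5 each). Each of these overlapped with the next in order, and so did every other neighbouring pair of the 14 receptors. After crush the order in FPKM changed, with Lrp6 (30.3 ± 7.06) and Fzd1 (28.3 ± 3.85) ahead of Fzd10 (26.7 ± 7.33) and Fzd3 (19.5 ± 2.92). Neighbouring receptors overlapped there too, and the CPM of Lrp6 was nearly the same in both groups, as given below. Among TCF/LEF factors the order was Tcf7l2 (34.3 ± 6.52 FPKM), Tcf7l1 (11.5 ± 2.09), Lef1 (5.42 ± 2.11) and Tcf7 (3.99 ± 1.82; SD, n = 5 each), and Lef1 and Tcf7 overlapped.

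Summed over each family, the Wnt ligands were lower than the Frizzled receptors. Single genes did not all follow this order, and in sham Wnt5a (mean 13.7 FPKM) was above Ror1 (mean 1.23 FPKM). The 11 Wnt genes together summed to 34.8 to 74 FPKM per sham library, against 102 to 131 FPKM for the 10 Frizzled genes. The corresponding sums were 45.6 to 68.1 and 125 to 153 FPKM in crush AAV-null, and 41.5 to 78.4 and 128 to 158 FPKM in crush AAV-CNTF. In sham, Wnt5a, a ligand known for beta-catenin-independent signalling, led with 13.7 ± 8.69 FPKM, followed by Porcn, Wnt6, Wnt7b, Wnt4 and Wnt3 at means of 8.26 to 5.28 FPKM, and all neighbours overlapped. Levels of Wnt5a per length were uneven: its FPKM was 8.97, 11.9, 27.3, 4.35 and 15.9 in the 5 sham libraries, while its CPM there was 35.9, 37.1, 41.1, 29.2 and 30.5. The ratio of FPKM to CPM differed 4.46-fold between libraries for Wnt5a and 4.32-fold for Lef1, against a median of 1.45-fold over the members. For Wnt11, Frzb, Axin1 and Axin2 it differed 3.09-fold to 3.73-fold, and the cause was not tested for any of these. Differences of 1 gene between groups are therefore given in CPM below.

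**Figure D1:**
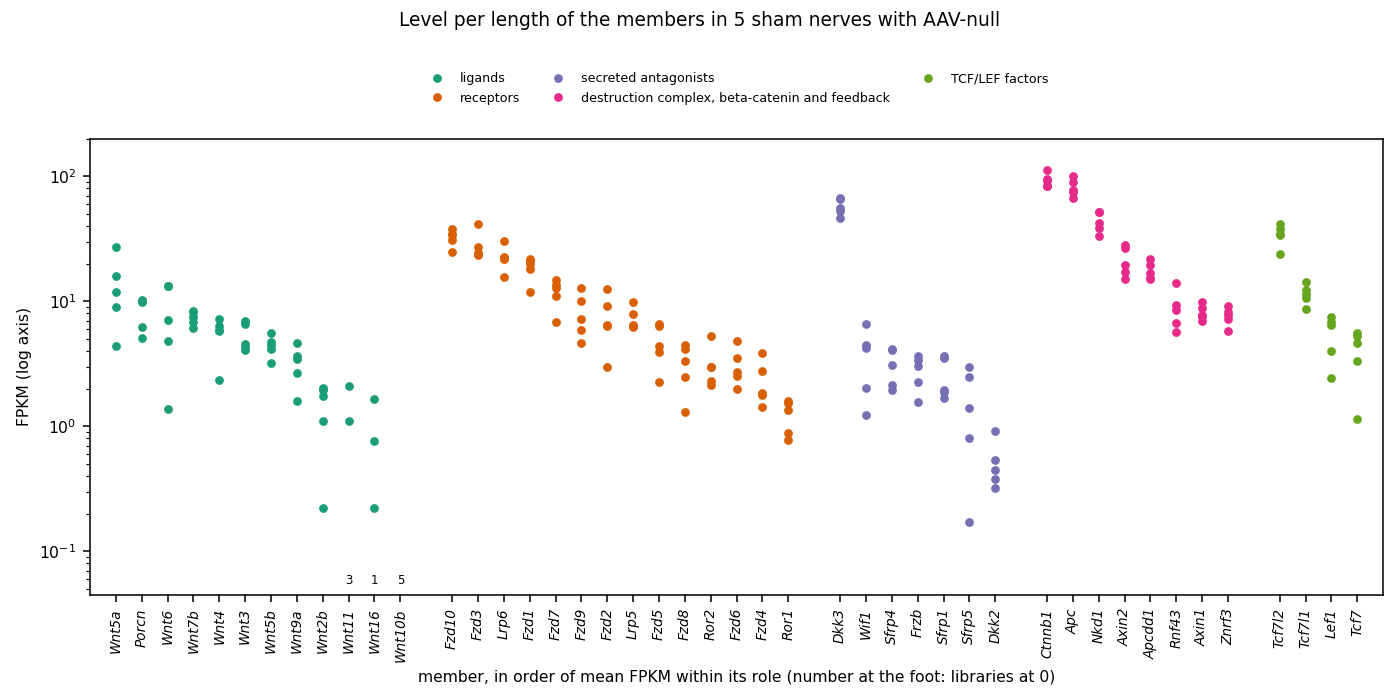
FPKM (log axis) of each member in the 5 sham AAV-null libraries (points), ordered by mean within its role; numbers at the foot count libraries at 0, which a log axis cannot show. Ctnnb1, Apc and Dkk3 sit highest, and Wnt10b is at 0 in all 5 libraries.

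The comparison of crush with sham, both with AAV-null, asks what the injury does to these genes. Among the members that changed, 4 receptors and 2 secreted antagonists were higher, while the ligand Wnt3, the receptor Fzd3, Apc and the feedback gene Nkd1 were lower. By the quasi-likelihood test of edgeR, adjusted over all genes by Benjamini-Hochberg, 9 of the 45 members rose (20.0%), against 14.7% of all genes tested. Another 4 fell (8.89%), against 12.9% of all genes, and 32 did not pass. Those that rose were Wnt10b, Fzd1, Fzd6, Lrp5, Ror1, Dkk2, Sfrp4, Ctnnb1 and Tcf7l2, and those that fell were Wnt3, Fzd3, Apc and Nkd1. Wnt10b is listed only through the group where it is high, so its place among the 9 says nothing beyond its listing. Dkk2 and Ror1 did not meet the level rule in sham, so their places among the 9 were partly built in. The shares are close to those of all genes, and the median log2 fold change was 0.02 for the members and 0.00 for all genes. At an unadjusted p under 0.05 there were 20 members, and 5260 of all genes. The split depends on the scale: edgeR called 2087 of all genes higher and 1825 lower, while limma on log2(FPKM + 0.5) called 2364 and 857, with 10 and 2 members. With each library's FPKM centred on its median the calls were 1421 and 1547, with 6 and 5 members, and Fzd1, Ror1, Ctnnb1 and Tcf7l2 were among those lost. For each of the 13 members that passed, the 5 crush libraries did not overlap with the 5 sham libraries, nor did they for Wnt5b and Frzb, which did not pass. The share of all genes without overlap was not counted, so this only describes the members.

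**Figure D2:**
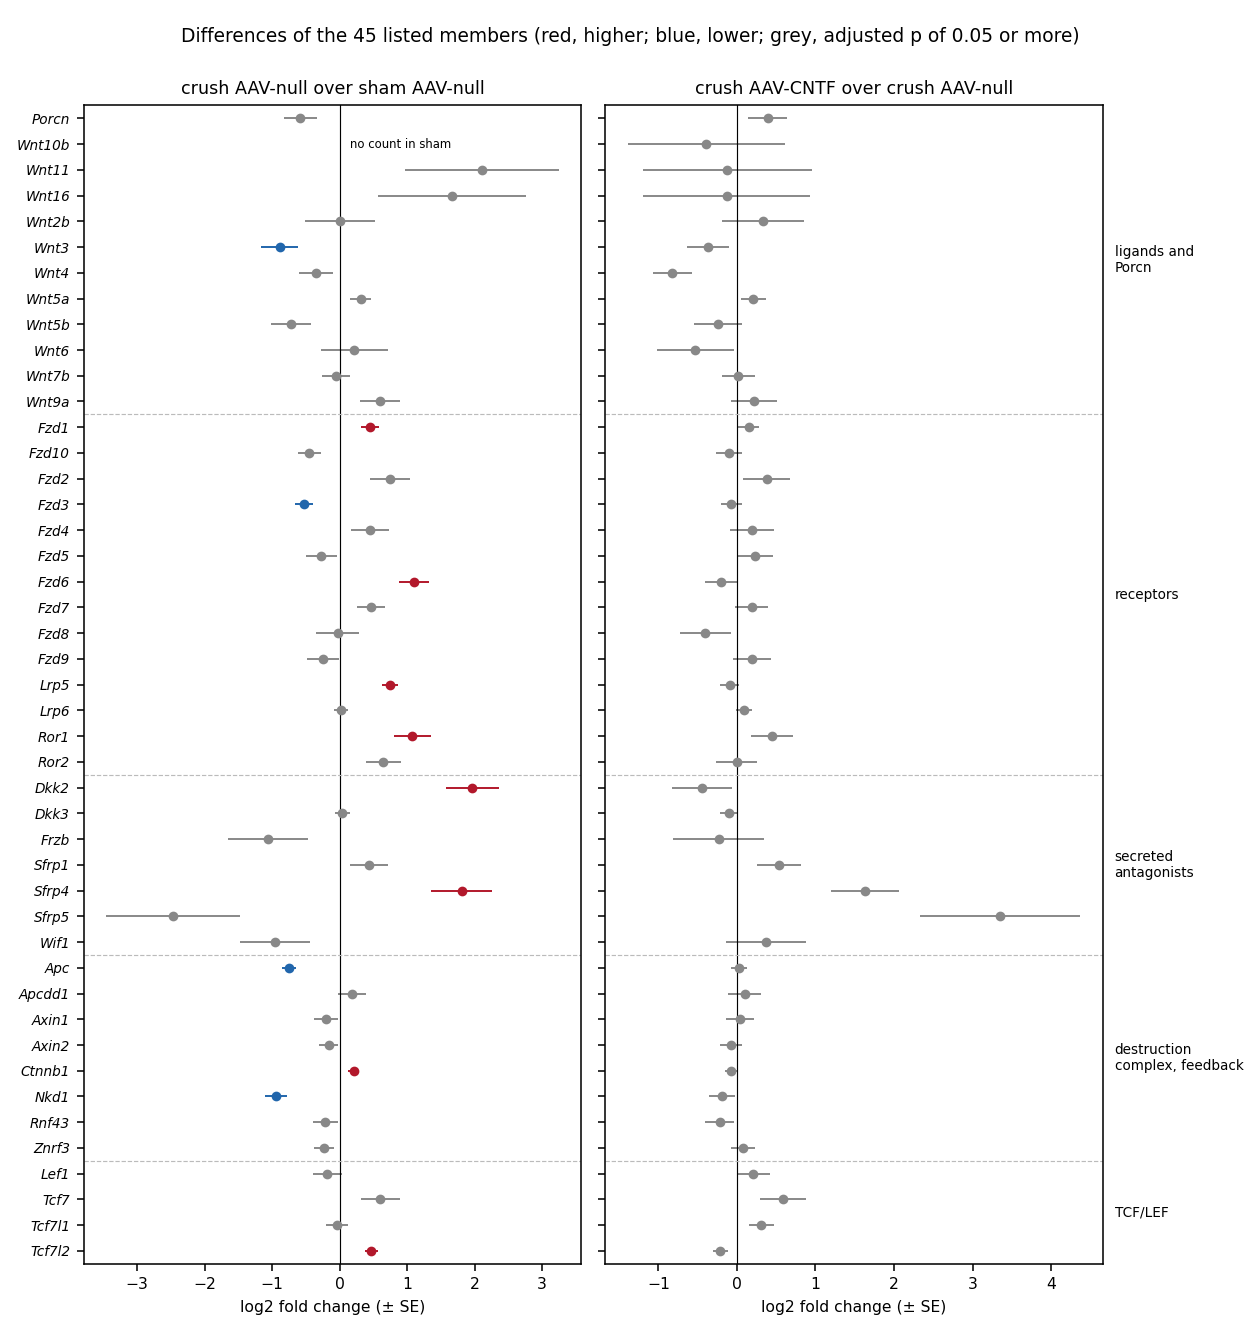
Log2 fold change with its standard error for each member, crush AAV-null over sham AAV-null on the left and crush AAV-CNTF over crush AAV-null on the right, grouped by role. Coloured points passed an adjusted p of 0.05: 12 are drawn on the left beside Wnt10b, which had no count in sham and so is named without a point, and 0 on the right.

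Among the ligands, Wnt10b and Wnt3, both known as activators of the beta-catenin branch, changed in opposite directions. Wnt10b (chr15:98770712-98778150, minus strand) had no count in any sham library. In the 5 crush AAV-null libraries it had 60, 57, 76, 14 and 63 counts, or 2.93, 2.53, 3.25, 0.632 and 2.13 CPM. Every crushed nerve with AAV-null thus had reads where no sham nerve had any, at a level that is low in each. Over the group this was 2.29 CPM, at least 81.5-fold higher than the 0.0281 CPM that 3 counts over the sham group would give. This floor covers counting error only, and the fold is a description with no test, since Wnt10b reached the table through crush AAV-null alone.

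Wnt3 (chr11:103774150-103817957, plus strand) was at 12.7, 14.1, 21, 13.9 and 20.3 CPM in sham and at 6.99, 8.36, 9.79, 6.82 and 12.3 CPM after crush. The highest crush library, replicate 6, was just under the lowest sham library, replicate 2. Its log2 fold change was -0.89 ± 0.27 (SE; edgeR, adjusted p = 0.0155), and in limma on log2(FPKM + 0.5) the call was lost (-0.64, adjusted p = 0.0765).

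The other 10 genes of this role did not pass, among them Porcn at 14.9 ± 4.18 and 9.96 ± 2.92 CPM (log2 fold change -0.58 ± 0.25, adjusted p = 0.0883, edgeR). Wnt5a, the ligand with the highest mean FPKM, was at 35.9, 37.1, 41.1, 29.2 and 30.5 CPM in sham and 44.3, 34.6, 34.9, 47.2 and 54 CPM after crush. Its groups overlapped, with a log2 fold change of 0.31 ± 0.16 (edgeR, adjusted p = 0.166). Wnt5b, its close relative, was at 7.89 to 12.6 CPM in sham nerves, against 4.71 to 7.29 CPM after crush, without overlap (-0.72 ± 0.30; edgeR, adjusted p = 0.0795). The low ligands Wnt11 and Wnt16 had log2 fold changes of 2.11 ± 1.14 and 1.67 ± 1.10, with both groups under 5 CPM in every library. Wnt2b, Wnt4, Wnt6, Wnt7b and Wnt9a had log2 fold changes from -0.35 to 0.60.

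At the receptor level 4 of 14 genes rose and 1 fell, and the median log2 fold change was 0.45. The 4 include Ror1, which did not meet the level rule in sham, so its place was partly built in. Of all genes tested 14.7% rose and 12.9% fell, with a median of 0.00, and on median-centred FPKM the calls of Fzd1 (0.40, adjusted p = 0.0746, limma) and Ror1 (0.77, adjusted p = 0.055) were lost. Fzd6, a Frizzled with a role in planar polarity of epithelia (chr15:39006034-39038188, plus strand), was at 14.8, 11.9, 19.5, 10.4 and 8.34 CPM in sham and at 22.8, 30.6, 26, 34.5 and 25.6 CPM after crush. All 5 crush libraries lay above the highest sham library (log2 fold change 1.10 ± 0.22 SE; edgeR, adjusted p = 0.00051). An exon of Fzd6 overlaps one of Gm26704 on the other strand. The sources used here do not say whether counting used strand, so reads of the 2 genes cannot be told apart.

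Fzd1 (chr5:4753839-4758035, minus strand) was at 94.1, 53.4, 89, 85.4 and 77.7 CPM in sham and at 105, 94.7, 96.1, 139 and 112 CPM after crush. The groups were barely separated, between sham replicate 2 and crush replicate 3 (0.45 ± 0.13; edgeR, adjusted p = 0.0133). Without crush AAV-null replicate 5, which had the highest level, the log2 fold change was 0.35 and the adjusted p was 0.054. Fzd3, a Frizzled needed for the guidance of growing axon tracts (chr14:65192449-65262463, minus strand), went the other way, from 104, 123, 97.9, 100 and 102 CPM to 66, 58.1, 80.6, 73 and 88.1 CPM. No crush library reached the lowest sham value (-0.53 ± 0.13; edgeR, adjusted p = 0.00382). Its call was lost in limma on log2(FPKM + 0.5) (-0.49, adjusted p = 0.0607). Fzd10, at the head of the sham order, was at 115, 85.1, 121, 110 and 101 CPM in sham and 107, 72, 77, 89.2 and 46.4 CPM after crush. Those groups overlapped (-0.45 ± 0.17; edgeR, adjusted p = 0.0604).

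The co-receptors Lrp5 and Lrp6, which join Frizzled in the beta-catenin branch, differed from each other in their values. Lrp5 (chr19:3584828-3686564, minus strand) was at 33.7, 34.8, 44.3, 41.8 and 34.2 CPM in sham and 64.6, 58.6, 58.2, 67.2 and 69.1 CPM after crush, with a wide gap between the groups (0.75 ± 0.12 SE; edgeR, adjusted p = 7.22e-05). Lrp6 was at 148 ± 15.7 and 150 ± 15.9 CPM (SD, n = 5 each; log2 fold change 0.02 ± 0.10). The receptor tyrosine kinase Ror1, a receptor for Wnt5a (chr4:100095791-100444765, plus strand), rose from 4.66, 9.74, 8, 9.44 and 5.3 CPM to 14.1, 19.5, 13.9, 19.8 and 11 CPM. Even its lowest crush library, replicate 6, was above all sham libraries (1.08 ± 0.27; edgeR, adjusted p = 0.00479). Ror1 was admitted through the 2 crush groups only, with 3 sham libraries at an FPKM of 1 or more. Part of this difference was thus built into its listing. Its relative Ror2 was at 12.6 ± 4.97 and 19.8 ± 3.76 CPM (0.65 ± 0.26; edgeR, adjusted p = 0.0694). The other 6 Frizzled genes had log2 fold changes from -0.27 (Fzd5) to 0.75 (Fzd2), with Fzd8 and Fzd9 at -0.03 and -0.25 and Fzd4 and Fzd7 at 0.45 and 0.47.

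Of the 7 secreted antagonists, which keep ligands or receptors from signalling, 2 rose and 0 fell. Beside this small count, 14.7% of all genes rose and 12.9% fell. Dkk2 (chr3:132085292-132180304, plus strand), which binds Lrp5 and Lrp6, was at 2.06, 1.8, 3.35, 1.18 and 1.42 CPM in sham and 5.48, 9.16, 7.27, 9.7 and 6.8 CPM after crush. The groups were well apart at a low level (1.97 ± 0.40 SE; edgeR, adjusted p = 0.000722). Dkk2 was admitted through the 2 crush groups only, with 0 sham libraries at an FPKM of 1. Part of this difference was thus built into its listing. Sfrp4 (chr13:19623104-19632994, plus strand), a secreted decoy with a Frizzled-like domain, was at 7.5, 6.74, 8.56, 4.45 and 4.21 CPM in sham and 12.4, 34.1, 17.1, 25.9 and 21.1 CPM after crush. Crushed nerves were higher in all 5 libraries but differed among themselves by more than the sham nerves did (1.81 ± 0.45; edgeR, adjusted p = 0.00392). The call was lost in limma-voom with quality weights, which also weights the libraries (adjusted p = 0.109).

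The remaining antagonists had no call in edgeR, while DESeq2 called Sfrp5, the fit with the replicate block Wif1 and the fit of only the 10 libraries compared Frzb. Dkk3 was at 192, 168, 225, 222 and 179 CPM in sham and 251, 156, 182, 214 and 205 CPM after crush, with overlapping groups and a log2 fold change of 0.04 ± 0.11. Frzb, Wif1 and Sfrp5 had values below sham (-1.06 ± 0.59, -0.96 ± 0.52 and -2.47 ± 0.99), and Sfrp1 was at 0.43 ± 0.28. Among these, only Sfrp5 had an unadjusted p under 0.05 (0.0215; edgeR, adjusted p = 0.0706).

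In the destruction complex and its feedback genes, Apc and Nkd1 were the members that fell. Apc was at 745, 658, 628, 795 and 778 CPM in sham and 450, 351, 468, 439 and 439 CPM after crush. The highest crush library was far below the lowest sham library (-0.75 ± 0.10 SE; edgeR, adjusted p = 8.99e-06). Nkd1 (chr8:88521354-88594884, plus strand) was at 116, 79.8, 78.9, 114 and 93.7 CPM in sham and 53.9, 34.7, 53.5, 52.7 and 56 CPM after crush, again with a clear gap (-0.94 ± 0.16; edgeR, adjusted p = 0.000147). Ctnnb1 (chr9:120929216-120960507, plus strand) was at 280, 267, 301, 289 and 295 CPM in sham and 312, 346, 309, 356 and 340 CPM after crush. The groups lay close together without overlap (0.21 ± 0.08; edgeR, adjusted p = 0.043). This small rise lost its call without sham replicate 2, 3, 5 or 6 or crush AAV-null replicate 3, 5 or 6. The adjusted p was then 0.0597 to 0.11 (edgeR). The call was also lost with upper quartile scaling, the replicate block or only the 10 libraries compared (edgeR, adjusted p = 0.0559 to 0.0745). On median-centred FPKM it was lost too (limma, adjusted p = 0.332). Exons of Ctnnb1 also overlap those of Ulk4 on the other strand and of Mir7090 on the same strand.

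The other feedback genes did not pass. Axin2, often used as a readout of the beta-catenin branch, was at 61.4 ± 10.7 CPM in sham nerves and at 54.8 ± 4.51 CPM after crush (SD, n = 5 each; log2 fold change -0.16 ± 0.14), and in FPKM its log2 difference had the other sign, at 0.37. Exons of Axin2 overlap those of Gm11670 on the other strand. Rnf43 and Znrf3, ubiquitin ligases that remove Frizzled from the membrane, had log2 fold changes of -0.21 ± 0.18 and -0.23 ± 0.15. Apcdd1, a membrane inhibitor, was at 0.18 ± 0.21 and the scaffold Axin1 at -0.20 ± 0.18. Nkd1 therefore stood apart in value from the 4 other feedback genes, whose log2 fold changes lay between -0.23 and 0.18.

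Of the 4 TCF/LEF factors, Tcf7l2 rose. Tcf7l2 (chr19:55741820-55933654, plus strand), which marks oligodendrocyte precursors on their way to maturing and is also found in astrocytes, was at 78.5, 78.1, 81.4, 81.3 and 81 CPM in sham. After crush it was at 129, 98.2, 111, 120 and 95.4 CPM. The sham libraries were nearly identical, and the crush libraries were spread above them (0.47 ± 0.10 SE; edgeR, adjusted p = 0.00126). In limma on log2(FPKM + 0.5) its call was lost (0.60, adjusted p = 0.0523). Lef1 was at 15.5 ± 4.35 and 13.7 ± 1.48 CPM (-0.18 ± 0.21), with the other sign in FPKM (0.54). Tcf7 was at 7.85 ± 3.02 and 11.9 ± 2.76 CPM (0.60 ± 0.29; edgeR, adjusted p = 0.136), and Tcf7l1 at 31.9 ± 4.82 and 30.9 ± 6.62 CPM (SD, n = 5 each).

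**Figure D3:**
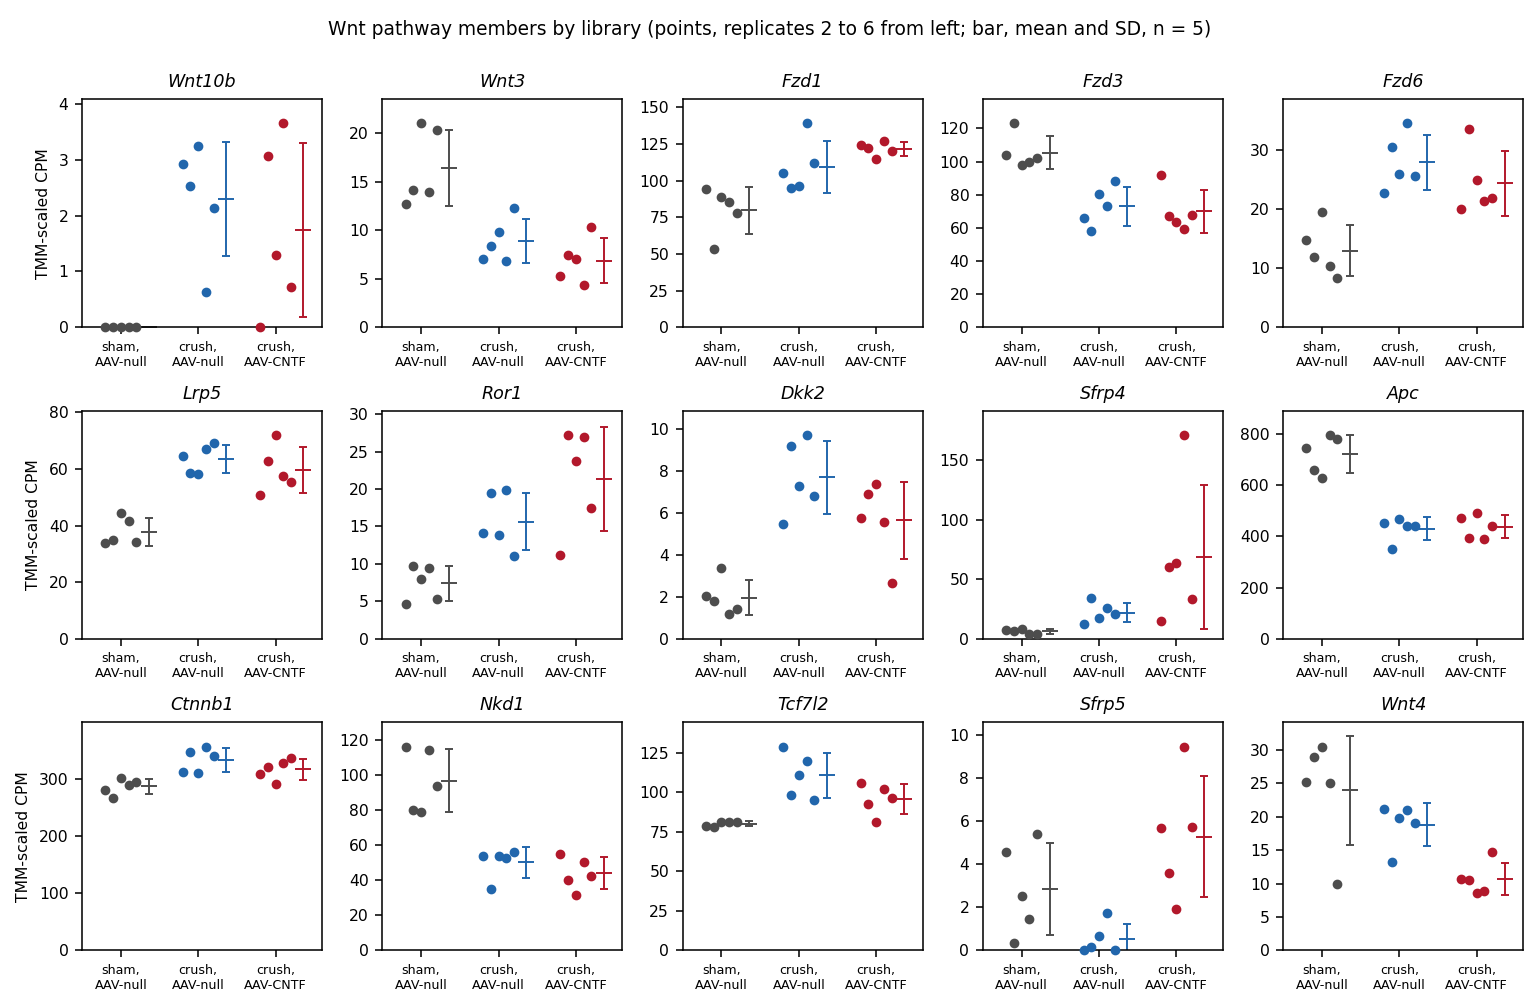
TMM-scaled CPM of the 13 members that passed in crush against sham, and of Sfrp5 and Wnt4, in each of the 15 libraries (points, replicates 2 to 6 from left), with the mean and SD of each group of 5. Sham and crush AAV-null points do not overlap in the first 13 panels, and crush AAV-CNTF replicate 5 stands high for Sfrp4 at 171 CPM.

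Markers of cell types also differed after crush, and no association with the members was computed. Summed over 14 fibroblast and sheath genes, levels were 1794 to 5448 CPM in sham and 7846 to 15007 CPM after crush, and 7 of the 14 rose. Summed levels of 12 phagocyte genes were 7102 to 8744 and 18308 to 24940 CPM (11 of 12 rose), and of 10 genes of dividing cells 12.5 to 41.9 and 294 to 424 CPM (10 of 10 rose). In the other direction, 12 oligodendrocyte genes summed to 51644 to 65621 CPM in sham and 21849 to 30441 CPM after crush (12 of 12 fell), and 12 astrocyte genes to 9039 to 10043 and 5458 to 7287 CPM (10 of 12 fell). Of all genes 14.7% rose and 12.9% fell. Other lists went both ways or had few calls, given here as higher and lower. Microglia had 6 and 1 of 9, pericytes and smooth muscle 5 and 2 of 11, and NG2 glia 4 and 3 of 11. Axons and neurons had 3 and 4 of 10, and endothelium 1 and 2 of 13. Schwann cells had 0 and 2 of 5, T cells 0 and 1 of 6, and skeletal muscle 0 and 0 of 6. None of these genes was at 0 in all libraries of a group. Their part in the rise of Sfrp4, Dkk2 and Ror1 or in the fall of Apc, Nkd1, Fzd3 and Wnt3 was not tested.

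A wider set of Wnt pathway genes outside the families above went both ways after crush. The lists of these genes were chosen with earlier results of these data known. Of 157 genes on 8 lists, 136 were in the table and tested, of which 21 rose and 23 fell (58 at an unadjusted p under 0.05), and the median log2 fold change was 0.03. Relative to the 14.7% and 12.9% of all genes called higher and lower, the lists as a whole were thus not far from the background. In FPKM, where the median of all genes was 0.17 log2 units higher in crush than in sham, limma called 7 of these genes lower.

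On a list of genes for Wnt secretion, agonists and other modulators, 3 of 7 rose and 0 fell. This and the next small counts stand beside 14.7% of all genes higher and 12.9% lower. Wls, which carries Wnt proteins to the surface, went from 68.8 ± 9.14 to 98.1 ± 17.5 CPM, and Cthrc1, a secreted protein that favours the polarity branch, from 7.03 ± 3.56 to 27.1 ± 6.24 CPM (mean and SD of 5 libraries; log2 fold changes 0.51 ± 0.13 and 1.95 ± 0.31). Tpbg, a membrane modulator of Lrp6, went from 5.61 ± 3.23 to 11.9 ± 1.39 CPM. Of 6 other extracellular antagonists 3 rose: Igfbp4, which binds insulin-like growth factors and also Frizzled, from 19.3 ± 11.4 to 114 ± 36.9 CPM, Trabd2b, a protease that cleaves Wnt proteins, from 9.74 ± 5.65 to 28.2 ± 11.1 CPM, and Shisa3, which retains Frizzled inside the cell, from 1.09 ± 0.731 to 4.91 ± 2.7 CPM. Of 13 other co-receptors 4 rose and 1 fell. Sdc1 (syndecan) rose from 6.56 ± 1.98 to 22.3 ± 4.06 CPM and Gpc6 (glypican) from 60.2 ± 13.3 to 112 ± 19.8 CPM, while Reck, which with Adgra2 presents Wnt7 ligands to vessels, fell from 30.2 ± 3.34 to 15.9 ± 1.91 CPM. Its partner Adgra2 went the other way, from 88.8 ± 16.1 to 148 ± 30.8 CPM (0.74 ± 0.17; edgeR, adjusted p = 0.0018).

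For genes that act inside the cell, the counts stand beside 14.7% of all genes higher and 12.9% lower, and they depend on the scale, since limma on FPKM called 7 of all 136 pathway genes lower in place of 23. Of 31 genes of Dishevelled and the destruction complex 2 rose and 6 fell, led by Amer2, a membrane anchor of Apc, from 73.3 ± 11 to 22.3 ± 6.9 CPM (-1.72 ± 0.18). Apc2, the neuronal relative of Apc, fell from 138 ± 11.5 to 82 ± 17.6 CPM and Dact3, a Dishevelled antagonist, from 82.7 ± 10.7 to 49.8 ± 12.6 CPM. Of 24 nuclear cofactors 0 rose and 4 fell: Bcl9 and Pygo1, which link beta-catenin to transcription, the co-repressor Tle4, and Ctnnbip1, which blocks beta-catenin from TCF. Bcl9 went from 76.5 ± 7.81 to 53 ± 8.31 CPM, Pygo1 from 34.8 ± 4.56 to 22.1 ± 3.76 CPM and Tle4 from 44.5 ± 4.35 to 31.9 ± 5.61 CPM. In the planar polarity branch, of 20 genes tested 0 rose and 6 fell, with Daam2, a formin that acts downstream of Dishevelled, from 574 ± 63.5 to 239 ± 30.6 CPM (-1.27 ± 0.10; edgeR, adjusted p = 1.16e-08). Prickle2 fell from 142 ± 20.1 to 73.4 ± 14 CPM and Daam1 from 168 ± 22.1 to 111 ± 10.2 CPM.

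Genes that beta-catenin is known to activate in other tissues were higher in 9 of 23 cases and lower in 3, and 17 of 23 had an unadjusted p under 0.05, beside 14.7% higher and 12.9% lower among all genes and 5260 of 14194 at that unadjusted p. Since this list was chosen with earlier results of these data known, its counts cannot be read as an excess over that background. Sox4, a transcription factor of progenitors, rose from 39.5 ± 11 to 143 ± 8.02 CPM, Myc from 11.7 ± 1.73 to 38.9 ± 9.94 CPM and the adhesion receptor Cd44 from 141 ± 23.1 to 264 ± 27.7 CPM (SD, n = 5 each). These genes answer to many pathways, and Birc5, another of the 9, is also on the list of dividing cells. Of 15 endothelial targets and barrier genes 1 rose and 3 fell. Slc2a1, the glucose transporter of barrier endothelium, fell from 211 ± 11.7 to 131 ± 11.3 CPM and Tfrc, the transferrin receptor, from 43.5 ± 7.58 to 21.8 ± 4.03 CPM, while Lsr, a protein of tricellular junctions, rose from 10.8 ± 3.05 to 23.7 ± 8.36 CPM. Beside these, the summed level of 13 endothelial markers was 392 to 497 CPM in sham and 414 to 504 CPM after crush, overlapping ranges. Within that sum Cdh5 was called higher (76.8 to 162 CPM), and Egfl7 and Flt1 were called lower.

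**Figure D4:**
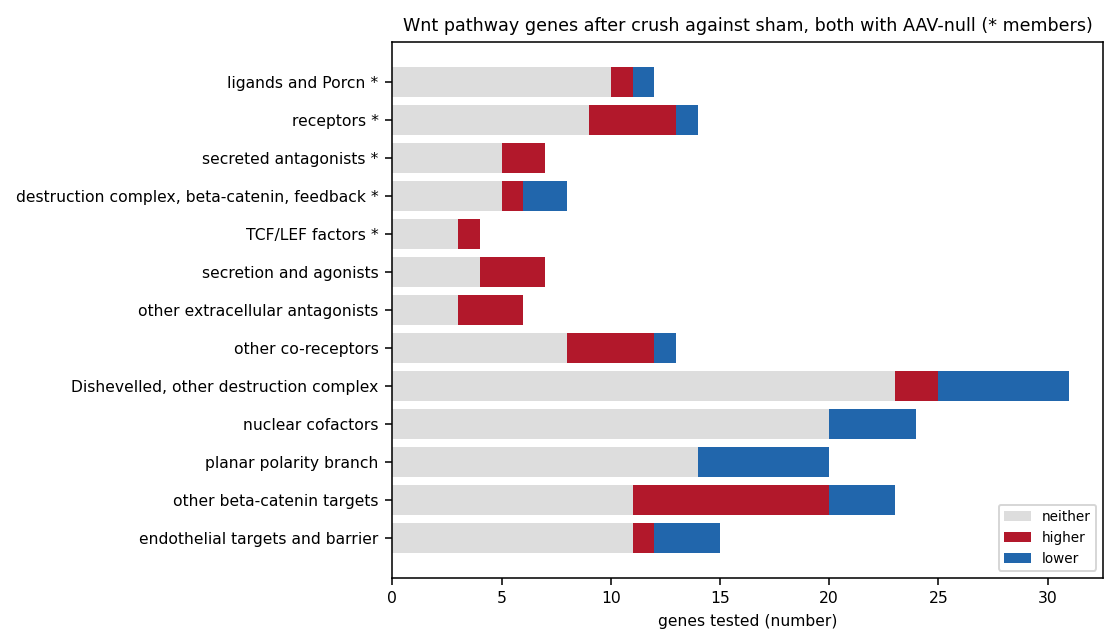
Number of genes tested in each role of the members (asterisk) and in each other pathway list, split by the result of crush AAV-null against sham AAV-null at an adjusted p of 0.05. Nuclear cofactors and the planar polarity branch have 4 and 6 genes lower and 0 higher, beside 12.9% of all genes lower and 14.7% higher. Nkd2 is on 2 lists.

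The comparison of AAV-CNTF with AAV-null in crushed nerves asks what the cytokine vector adds to the injury. No member passed: 0 of 45 were higher, against 0.0423% of all genes (6 genes), and 0 were lower, against 0.0141% (2 genes), by edgeR with Benjamini-Hochberg adjustment. At an unadjusted p under 0.05 there were 4 members, and 1091 of all genes. DESeq2 called 1 member, Sfrp5, which is listed only through crush AAV-CNTF, and limma-voom with quality weights called 0. The members' median log2 fold change was 0.03. The 4 members at an unadjusted p under 0.05 were chosen for description after their values were seen, and none of them is a call in edgeR.

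Among the members, Sfrp5 had the largest log2 fold change with CNTF and Sfrp4 the smallest unadjusted p, and neither is a call in edgeR. The rank of Sfrp5 was partly built in, since it is listed only through crush AAV-CNTF. Their relatives Sfrp1 and Frzb had log2 fold changes of 0.53 ± 0.28 and -0.23 ± 0.58. Sfrp4 was at 14.8, 60.1, 63.6, 171 and 33.5 CPM in crush AAV-CNTF, against 12.4, 34.1, 17.1, 25.9 and 21.1 CPM in crush AAV-null. Replicates 3, 4 and 5 with CNTF stood above all AAV-null libraries, and replicates 2 and 6 lay within their range. The log2 fold change was 1.63 ± 0.43 (SE; edgeR, unadjusted p = 0.00115, adjusted p = 0.19). Without crush AAV-CNTF replicate 5 it was 0.96 (adjusted p = 0.508). Summed fibroblast and sheath markers were 7542 to 18421 CPM in crush AAV-CNTF and 7846 to 15007 CPM in crush AAV-null, and their part in the Sfrp4 values was not tested.

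Sfrp5 (chr19:42197971-42202252, minus strand) was at 5.69, 3.61, 1.94, 9.46 and 5.71 CPM with CNTF and at 0, 0.178, 0.684, 1.72 and 0 CPM with AAV-null. These groups did not overlap, but the sham libraries (4.56, 0.323, 2.51, 1.45 and 5.42 CPM) overlapped with both. The log2 fold change was 3.35 ± 1.02 (edgeR, adjusted p = 0.292; DESeq2, 3.36 and adjusted p = 0.0283). Over the 20 alternatives tried the adjusted p ran from 0.0283 to 0.492. Sfrp5 reached the table through crush AAV-CNTF alone, the group where it is high. Its difference and the lack of overlap are therefore a description. Wnt4 (chr4:137277489-137299726, plus strand), a ligand known from kidney and gonad development, was at 10.7, 10.5, 8.58, 8.85 and 14.7 CPM with CNTF and at 21.1, 13.2, 19.8, 21 and 19.1 CPM with AAV-null. Crush AAV-CNTF replicate 6 was above crush AAV-null replicate 3, and the other libraries were separated (-0.82 ± 0.25; edgeR, adjusted p = 0.289). Tcf7l2 was at 106, 92.9, 81.1, 102 and 96.2 CPM with CNTF, between the sham and crush AAV-null means (-0.21 ± 0.10 against crush AAV-null; edgeR, unadjusted p = 0.0491, adjusted p = 0.647), and on median-centred FPKM that difference was 0.01.

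All 14 receptors lay between -0.40 (Fzd8) and 0.45 (Ror1) on the log2 scale in this comparison, and all 8 genes of the destruction complex and feedback role between -0.22 (Rnf43) and 0.10 (Apcdd1). The standard errors in the latter role were 0.08 to 0.21. Axin2 was at 52 ± 8.88 CPM with CNTF and 54.8 ± 4.51 CPM with AAV-null (SD, n = 5 each; -0.08 ± 0.14). The members with the highest mean FPKM differed little here: Ctnnb1 by -0.07 ± 0.08, Apc by 0.03 ± 0.10 and Dkk3 by -0.10 ± 0.11. Wnt5a, the ligand with the highest mean FPKM, differed by 0.21 ± 0.16.

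Among all genes 0.0423% were higher with CNTF and 0.0141% lower. Of the 136 other pathway genes 1 was higher and 0 were lower (9 at an unadjusted p under 0.05). It was Plvap, a diaphragm protein of leaky endothelium that vessels with an intact barrier lack. Plvap was at 18.6 ± 4.62 CPM (13.5 to 22.9) with AAV-null and 53.7 ± 16.6 CPM (34.9 to 79.6) with CNTF (SD, n = 5 each), without overlap (1.53 ± 0.22 SE; edgeR, adjusted p = 0.0127). The sham level was 12.8 ± 2.77 CPM. In limma on log2(FPKM + 0.5) the adjusted p was 0.051. Summed endothelial markers were 414 to 504 CPM with AAV-null and 400 to 753 CPM with CNTF, with 0 of 13 called, and their part was not tested.

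Crush with AAV-CNTF was also set against sham with AAV-null, a comparison that differs in both injury and vector cargo and shares its libraries with the other 2. Here 13 of 45 members were higher, against 17.0% of all genes, and 7 were lower, against 14.3%. The median log2 fold change was 0.14 for the members and 0.01 for all genes. Wnt10b, Dkk2 and Ror1, which did not meet the level rule in sham, are among the 13. On median-centred FPKM limma called 8 members higher and 8 lower. Ligands were called in both directions, with Wnt5a, Wnt9a and Wnt10b higher and Wnt3, Wnt4 and Wnt5b lower. Receptors that were higher were Fzd1, Fzd2, Fzd6, Fzd7, Lrp5 and Ror1, and those lower were Fzd3 and Fzd10. Antagonists that were higher were Dkk2, Sfrp1 and Sfrp4, Apc and Nkd1 were again lower, and of the TCF/LEF factors Tcf7 was higher. Without crush AAV-CNTF replicate 5 the calls of Wnt5a, Wnt9a, Fzd7 and Fzd10 were lost. Wnt9a also lost its call without any 1 of sham replicates 4, 5 and 6 or of crush AAV-CNTF replicates 2 and 3, and Fzd7 without sham replicate 5 or 6 or crush AAV-CNTF replicate 3. On FPKM the calls of Wnt5a, Fzd3 and Fzd10 were lost, and on median-centred FPKM those of Wnt5a, Wnt9a, Wnt10b, Fzd7 and Sfrp1.

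Several of these members are best read as 3 levels side by side. Sfrp4 was at 6.29 ± 1.91 CPM in sham, 22.1 ± 8.36 in crush AAV-null and 68.6 ± 60.7 in crush AAV-CNTF (SD, n = 5 each; 3.45 ± 0.47 for crush AAV-CNTF over sham; edgeR, adjusted p = 8.47e-06). Tcf7, a factor abundant in T cells, was at 7.85 ± 3.02, 11.9 ± 2.76 and 18 ± 4.62 CPM (1.20 ± 0.29; edgeR, adjusted p = 0.00322), with 13 to 25.2 CPM with CNTF above every sham library (2.95 to 10.6). Beside it, 6 T cell markers summed to 9.91 to 28.1 CPM in sham, 5.87 to 16.9 CPM in crush AAV-null and 21.8 to 65.9 CPM in crush AAV-CNTF, and their part in the Tcf7 level was not tested. Wnt4 was at 24 ± 8.16, 18.8 ± 3.24 and 10.7 ± 2.43 CPM (-1.17 ± 0.25; edgeR, adjusted p = 0.00105), although sham replicate 6, at 10 CPM, lay within the CNTF range. Fzd2 was at 27.9 ± 12.9, 47 ± 10.7 and 61 ± 23.4 CPM (1.13 ± 0.30; edgeR, adjusted p = 0.00636). Sfrp1 was at 11.5 ± 4.31, 15.4 ± 4.37 and 22.2 ± 7.71 CPM (0.95 ± 0.29; edgeR, adjusted p = 0.014). Without crush AAV-CNTF replicate 4 its call was lost (0.77, adjusted p = 0.0541), as it was on median-centred FPKM (adjusted p = 0.0648). That Tcf7, Wnt4, Fzd2 and Sfrp1 passed in edgeR against sham with AAV-CNTF and not with AAV-null does not show a difference between the vectors, for which the direct comparison above gave no call. Wnt10b had 0, 89, 40, 96 and 18 counts in the crush AAV-CNTF libraries, 1.78 CPM over the group and at least 63.6-fold above the floor of 3 counts over sham.

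Of the 136 other pathway genes 29 were higher and 23 lower in crush AAV-CNTF than in sham, against 17.0% and 14.3% of all genes. Those higher included Igfbp4 at 180 ± 99.2 CPM and Shisa3 at 18.4 ± 12.9 CPM with CNTF. Abcb1a, Gpc3, Jag1, Snai2 and Twist1 were among those higher and Celsr1 and Prickle1 among those lower, named here after their values were seen. The authors' deposited table, at its adjusted p-value under 0.05, has 10 members higher and 6 lower in crush AAV-null against sham, 14 and 7 in crush AAV-CNTF against sham, and 0 and 0 in crush AAV-CNTF against crush AAV-null. In that table Fzd2 is called higher and Frzb and Wnt5b lower in the first comparison, beside the 13 members called above.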

How the data were processed

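RNA from 15 optic nerves was sequenced, 5 biological replicates in each of 3 groups. Per the labels, 2 library kits are named (20 ng and 500 ng of RNA), and the labels do not say which libraries each served. The submitters' processing notes name Trimmomatic 0.32, STAR 2.5.3a, RSEM 1.2.31, DESeq2, R 3.2.3 and mm10. Per the file headers, the authors deposited an expected count and an FPKM value per gene and library, scaled by gene length and depth. The authors also deposited a log2 fold change and an adjusted p-value for each pair of groups. The sources used here do not give the annotation or strand setting.

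Expected counts (13.7% to 18.3% not whole) were rounded and fitted in edgeR 4.0.16 (R 4.3.3): TMM scaling, filterByExpr by group, quasi-likelihood test, 1 model over 15 libraries with 12 residual degrees of freedom. P-values were adjusted by Benjamini-Hochberg over 14194 genes, with 0.05 as the threshold. SE is the absolute log2 fold change divided by the square root of the F statistic. CPM uses TMM-scaled library sizes. All 45 members are named, those past the threshold in the 2 comparisons with crush AAV-null and the most abundant by FPKM in a role with every library's value. Of each other list, up to 3 genes with the smallest p and a mean of at least 5 CPM are named (Shisa3, Ctnnbip1 and Adgra2 were added after their values were seen). Members and lists were chosen with earlier results of these data known. Alternatives were RLE and upper quartile scaling, a minimum mean of 1 CPM or no filter on low counts, the replicate number as a block, DESeq2 1.42.0, limma-voom with quality weights (limma 3.58.1), only the 10 libraries compared, and each library left out. Limma on log2(FPKM + 0.5), as deposited and median-centred, was added after the data were seen. Same-numbered libraries had correlations of deviations from group means of -0.05 to 0.11 over 15 pairs and were not treated as paired. No 2 libraries of a group were alike within sampling noise (chi-square per degree of freedom 40.7 or more). Scripts were tested on simulated data. Positions and exon overlaps are from GENCODE M21 (GRCm38), promoter letters from RefSeq, read with Python 3.11.15. Exons of 9 members (Wnt5a, Wnt7b, Wnt11, Fzd5, Fzd6, Axin2, Ctnnb1, Lef1 and Tcf7l1) overlap exons of a gene on the other strand.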

Additional observations from a re-analysis of the deposited data

Results flagged for a closer look

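Over 134 groups of 5 libraries (each member in each group, without Wnt10b in sham), 9 had a highest or lowest library whose gap to the next exceeded 0.71 of the group's range. Chance flags about 1 in 20 groups, so several such groups arise by chance alone. Crush AAV-null replicate 3 was lowest for 3 members: Wnt4 at 13.2 CPM (others 19.1 to 21.1), Apc at 351 CPM (others 439 to 468) and Nkd1 at 34.7 CPM (others 52.7 to 56). Crush AAV-null replicate 2 was lowest for Fzd2 at 28.7 CPM (others 47.3 to 54.6), and replicate 5 was highest for Wnt7b at 34.3 CPM (others 22 to 24.8). Crush AAV-CNTF replicate 2 was highest for Wnt7b at 42.6 CPM (others 17.8 to 24.5) and for Fzd3 at 92 CPM (others 59.5 to 67.5). In sham, replicate 6 was lowest for Wnt4 at 10 CPM (others 25 to 30.5), and replicate 3 was highest for Fzd3 at 123 CPM (others 97.9 to 104).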

How the results depend on the processing

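Of 759 values of single genes under alternatives, almost all of genes that edgeR called, so that gains could hardly appear, 715 kept direction and side of the threshold, 41 lost the call, 1 gained it and 2 changed sign, both on median-centred FPKM: Wnt5a in crush AAV-CNTF against sham (-0.09) and Tcf7l2 in crush AAV-CNTF against crush AAV-null (0.01). Against the 8 genes called in crush AAV-CNTF over crush AAV-null, 16 were called with the replicate block, 78 by DESeq2, 5 by limma-voom with quality weights, 1 with only the 10 libraries compared, 1 on FPKM, 3 on median-centred FPKM, and 1 to 41 with a library left out; the most, 41, came without crush AAV-CNTF replicate 6. Members higher there were 1 by DESeq2, and other pathway genes higher were 0 on FPKM.

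On FPKM, members lower in crush AAV-null against sham were 2, and other pathway genes lower were 7 there and 7 in crush AAV-CNTF against sham. On median-centred FPKM, other pathway genes higher in crush AAV-null against sham were 13, members higher in crush AAV-CNTF against sham were 8, and other pathway genes lower there were 14. All genes called in crush AAV-CNTF against sham were 2406 higher and 2031 lower by edgeR, 2584 and 997 on FPKM, and 1681 and 1580 on median-centred FPKM. The replicate numbers do not pair the libraries. With the replicate block 16 members were called in crush AAV-null against sham in place of 13 (Ctnnb1 lost, Fzd4, Fzd10, Ror2 and Wif1 gained) and 22 against 20 in crush AAV-CNTF against sham. Wnt10b in crush AAV-CNTF against sham had no value with only the 10 libraries compared, since it did not pass the low-count filter. Over all members, each of Fzd2, Fzd4, Fzd10, Ror2, Wif1, Frzb, Sfrp5, Wnt11 and Porcn gained a call in crush AAV-null against sham under at least 1 alternative. Wnt10b, Wnt11, Wnt16, Sfrp5 and Dkk2 were at a few CPM; whether depth limits their calls was not tested.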
